A study of Homo sapiens with 16 samples.

Results

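A stretch of chromosome 19, from 30 to 50 Mb on GRCh37, was described in 4 lists of TOP2B intervals, each interval a piece of DNA from what the authors named an intersection of peaks. An interval belonged to the region when its midpoint lay in these 20 Mb, which 614 of the 44922 intervals of the 4 lists did. The region was chosen by its counts: its share of the list was higher in osimertinib-treated than in untreated wild type. Those counts are therefore a description and carry no test. All cells were PC9, an established human lung adenocarcinoma line with an activating EGFR mutation, grown in RPMI-1640 with fetal bovine serum. The groups were METTL7A knockout under osimertinib, wild type under osimertinib, untreated METTL7A knockout and untreated wild type. Osimertinib, an inhibitor of mutant EGFR, was given for 6 to 8 weeks at doses raised from 100 nM. The labels name no vehicle for the untreated cells and do not say whether the knockout is 1 clone or whether replicates were separate cultures.

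The method was CUT&RUN: a nuclease tethered to an antibody cuts out the DNA around the antibody's target for sequencing. TOP2B is a type II topoisomerase: it cuts both strands of one DNA helix, passes another helix through the gap and seals the cut, which relieves the twist that transcription and chromatin folding put into DNA. In many cell types it is found at active promoters and enhancers and at the bases of chromatin loops, beside CTCF and cohesin. Chromosome 19 is the most gene-dense human chromosome, and its long arm is known for tandem families such as the KRAB zinc finger, CEACAM and PSG genes. An annotation and a genome of GRCh37 were not used here, so no interval was placed in a gene, intron or promoter and no sequence is given. Each condition had 2 replicate libraries and 1 list, taken from its name to be the intersection of their peaks. No spread between replicates is therefore known, and the 95% intervals below cover counting error only.

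The region was densely occupied in the list of treated wild type and sparsely in the other 3. It held 14 intervals in the treated knockout, 493 in treated wild type, 27 in the untreated knockout and 80 in untreated wild type. The corresponding shares of the lists were 0.187% (95% interval 0.102 to 0.313) in the treated knockout, 5.11% (4.68 to 5.56) in treated wild type, 0.216% (0.142 to 0.314) in the untreated knockout and 0.524% (0.415 to 0.651) in untreated wild type. Treated wild type thus had 24.7 intervals per Mb of the region, against 4 per Mb in untreated wild type. The intervals summed to 14.7 kb in the treated knockout, 616 kb in treated wild type, 49 kb in the untreated knockout and 182 kb in untreated wild type.

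Between treated and untreated wild type, the rest of chromosome 19 did not follow the region. Of all intervals on the chromosome, the region held 2.27% in the treated knockout, 70.3% in treated wild type, 2.93% in the untreated knockout and 8.93% in untreated wild type. Above 50 Mb the counts were 589 in the treated knockout, 191 in treated wild type, 855 in the untreated knockout and 742 in untreated wild type. That end of the chromosome held a lower share of the list in treated than in untreated wild type (ratio 0.407, 0.346 to 0.478), the opposite direction to the region. In the first 30 Mb the treated wild-type list held 17 intervals and the untreated one 74 (ratio 0.364, 0.201 to 0.622).

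**Figure D1:**
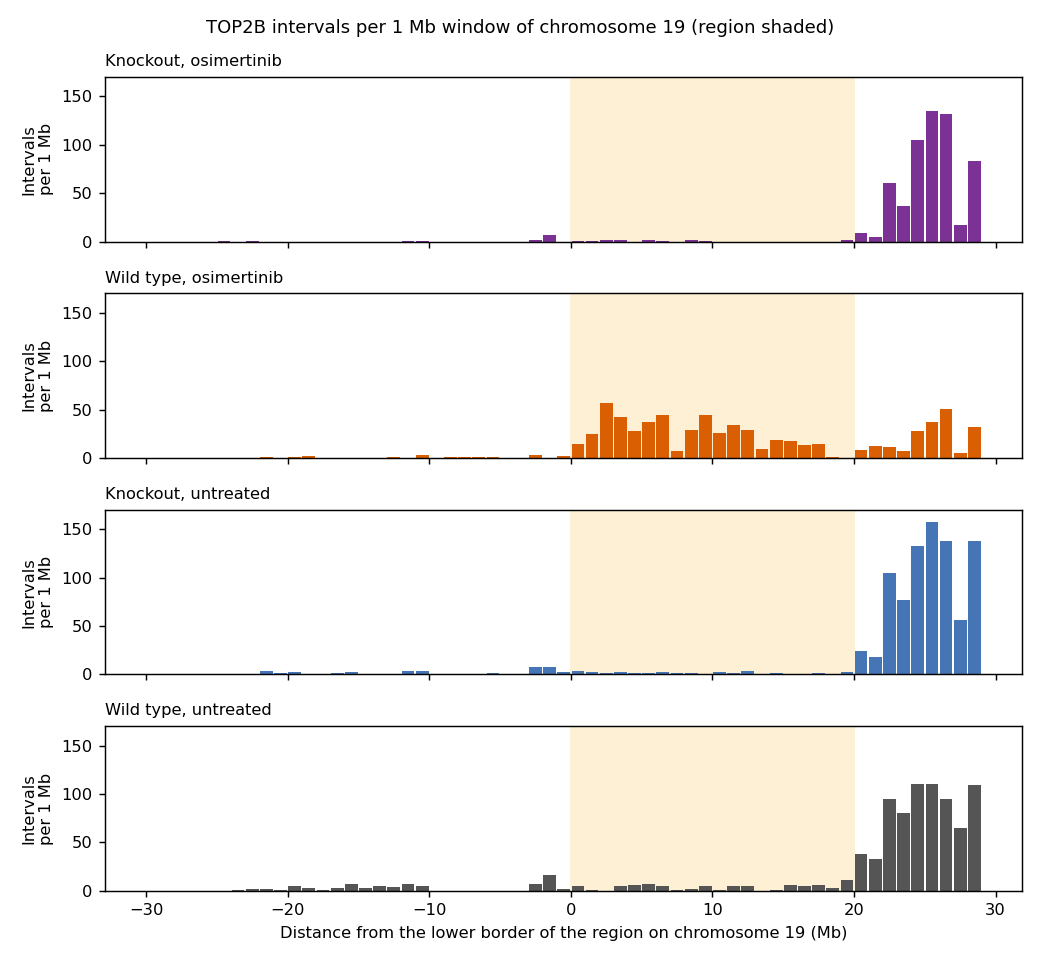
Number of TOP2B intervals (y axis) in each 1 Mb window of chromosome 19, by distance in Mb from the lower border of the region (x axis), with 1 panel per list and the region shaded. In treated wild type the bars fill the shaded region, with up to 57 intervals in a window, while in the other lists most intervals of the chromosome lie above it.

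Between treated and untreated wild type, the comparison that asks where TOP2B was found in cells grown under the drug, the share of the list in the region was 9.75 times as high under osimertinib (7.69 to 12.5). The size of this ratio depended on what was counted. It was 6.16 by number of intervals, 27.4 with both lists cut to equal length by maximum, and 29.7 among intervals whose called peak reached the median maximum of its list, where 297 treated and 14 untreated intervals were left. In steps of 5 Mb, the region held 167 treated and 17 untreated intervals at 30 to 35 Mb (15.5, 9.42 to 27.3), 162 and 20 at 35 to 40 Mb (12.8, 8.03 to 21.5), 117 and 12 at 40 to 45 Mb (15.4, 8.51 to 30.7) and 47 and 31 at 45 to 50 Mb (2.4, 1.49 to 3.91). The last 5 Mb thus stood nearer to equality, and their limits did not overlap those of the other steps.

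Windows of 1 Mb show the same unevenness at a finer scale. Of the 20 windows, 19 held an interval in treated wild type, with a median of 25.5 per window, against 18 windows and a median of 5 in untreated wild type. The densest treated window, 32 to 33 Mb, had 57 intervals in treated and 0 in untreated wild type, and it ranked 16 among the 951 windows of the treated list that held any interval. It was followed by 36 to 37 Mb with 45 treated and 5 untreated intervals, 39 to 40 Mb with 44 and 5, 33 to 34 Mb with 42 and 5, and 35 to 36 Mb with 37 and 7. Treated wild type was sparse within the region at 37 to 38 Mb with 7 intervals, at 43 to 44 Mb with 9, at 48 to 49 Mb with 1 and at 49 to 50 Mb with 0. Untreated wild type was densest in that last window, with 11 intervals. Windows were compared where 1 of the 2 lists held 20 intervals or more. In the region 11 windows did, and in all 11 the treated share exceeded the untreated one at least 2-fold, with ratios of 6.94 to 182 when 0.5 was added to each count. Over the genome 29.6% of the 307 such windows were at least 2-fold higher and 67.1% differed in either direction. The region's 11 windows reached 20 intervals through treated wild type alone and had been part of the choice of the region, so their count has no weight of its own.

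The borders differed between the lists. At the lower border of treated wild type the last interval outside lay at chr19:29909351-29910800 (0.727 times the median maximum of the list) and the first inside at chr19:30070051-30071600 (0.818 times). At the upper border its last interval inside lay at chr19:48956051-48956850 (0.818 times) and the next one outside at chr19:50148201-50149400 (0.909 times), so that treated wild type left more than 1 Mb empty across the border. Untreated wild type had intervals on either side at chr19:49990251-49994300 (1.08 times) and chr19:49998251-50003150 (1 times). Its intervals near the upper border thus adjoined the dense end of the chromosome.

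**Figure D2:**
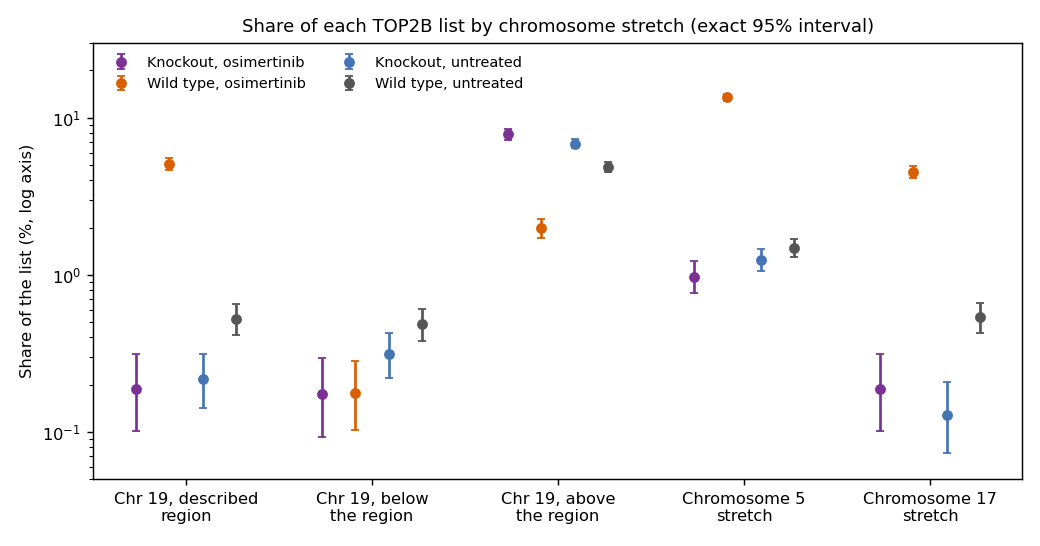
Share of each list in percent (y axis, log scale) that fell in the described region, in the 2 remaining stretches of chromosome 19, in the first 45 Mb of chromosome 5 and in chromosome 17 beyond 70 Mb. Points are the 4 lists and bars exact 95% intervals for counting error. Treated wild type stands above the other lists in the described region (5.11%) and in the stretches of chromosomes 5 and 17, and below them at the end of chromosome 19.

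Between the treated knockout and treated wild type, which asks what loss of METTL7A goes with under the drug, the region's share was lower in the knockout (ratio 0.0366, 0.0199 to 0.062). Among intervals at or above the median maximum of their list the ratio was 0.0119, from 3 knockout and 297 wild-type intervals. At 40 to 45 Mb the treated knockout had 0 intervals and treated wild type 117, for which the upper bound of the ratio was 0.0413. The same 11 windows of the region could be compared, and all were at least 2-fold lower in the treated knockout, beside 49.5% of the 212 such windows of the genome in that direction and 82.5% in either. This count was again fixed by the dense treated wild-type list.

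The 14 intervals of the treated knockout lay scattered over 9 of the 20 windows, with no window holding more than 2. No interval of that list lay between 39199050 and 49929401 on chromosome 19. The highest called peaks of the region in that list equalled the list median and were not above it. They lay at chr19:31741451-31741550, chr19:36501551-36502450 and chr19:32429201-32429900, and none had a counterpart in another list. The widest interval spanned 1700 bp at chr19:39197351-39199050.

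Without drug, the knockout held a smaller share in the region than wild type, with 27 against 80 intervals (ratio 0.413, 0.256 to 0.646). Among intervals at or above the list median the ratio was 0.793, from 13 and 14 intervals. The stretch at 45 to 50 Mb of the region was furthest from equality, with 3 knockout and 31 wild-type intervals (0.118, 0.0232 to 0.379). At 30 to 35 Mb the counts were 10 and 17 (0.72, 0.294 to 1.66). A smaller knockout share was not particular to the region. The ratio was 0.645 (0.426 to 0.963) in the first 30 Mb of chromosome 19 and 0.239 (0.13 to 0.411) in chromosome 17 beyond 70 Mb. In the first 45 Mb of chromosome 5 it was 0.839 (0.679 to 1.03), and above 50 Mb of chromosome 19 it was 1.41 (1.28 to 1.56). No window of the region held 20 intervals in either untreated list, so 0 were examined, whereas 14.7% of the 231 windows examined over the genome differed at least 2-fold in either direction. The highest called peaks of the untreated knockout reached 1.2 times the list median. Of those at this height, the 3 of largest area lay at chr19:38663501-38665300, chr19:36218551-36220700 and chr19:31879851-31881150. Another lay at chr19:42393251-42394600. The peak at chr19:31879851-31881150 overlapped an interval of treated wild type.

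In the knockout, a difference in the region's share between osimertinib and no drug was not detectable at this number of intervals: 14 treated and 27 untreated intervals gave a ratio of 0.865 (0.419 to 1.71). With lists of equal length the counts were 14 and 6 and the ratio 2.33, so its direction turned with the length of the lists. In steps of 5 Mb the counts were 6 and 10 at 30 to 35 Mb (ratio 1.0, 0.299 to 3.04), 6 and 6 at 35 to 40 Mb (1.67, 0.446 to 6.24), 0 and 8 at 40 to 45 Mb and 2 and 3 at 45 to 50 Mb (1.11, 0.0928 to 9.7). At 40 to 45 Mb the upper bound of the ratio was 0.977, just under equality. It rests on 0 and 8 intervals and was not adjusted for the number of steps, so no difference is read from it. No window of the region reached 20 intervals, beside 13.3% of 158 windows past 2-fold in either direction over the genome. The ratio of treated to untreated shares in wild type was 11.3 times that in the knockout, a difference left without a test because each condition had a single list. A higher ratio in wild type was not particular to the region, as given below for stretches of chromosomes 5 and 17.

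The lists shared only part of their positions within the region. No base was covered by more than 2 of the 4 lists. Of the treated wild-type intervals 95.1% (469 of 493) overlapped no interval of any other list, and of the treated knockout intervals 12 of 14 did not. These shares are at hand for the region only. The other lists held few intervals there for the treated wild-type ones to overlap, so the 95.1% follows largely from the choice of the region. Of the treated wild-type intervals in the region, 3.85% (19 of 493, 2.34 to 5.95) had a counterpart in untreated wild type, an overlap of at least 1 bp, against 30% of the remaining intervals of that list and 28.7% of the whole list. The share was 2.03% when the overlap had to reach 50% of both intervals. It was 8.32% when the intervals of both lists were widened by 1 kb at each end, which also counts gaps of less than 2 kb. In the other direction, 23.8% (19 of 80, 14.9 to 34.6) of the untreated wild-type intervals had a counterpart in treated wild type, against 14.8% of the rest of the list and 14.8% of the whole list. The longest stretch that both wild-type lists held was chr19:33896051-33898350, with 2300 bp.

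In the comparisons with the knockout the region held few intervals, and the limits are wide. Of the 14 treated knockout intervals, 1 had a counterpart in treated wild type (7.14%, 0.181 to 33.9), against 13.4% of the whole list. When the intervals of both lists were widened by 1 kb at each end, 6 did (42.9%). The limits without widening include the share of the whole list. None of the 14 had a counterpart in the untreated knockout (upper bound 23.2%), against 43.7% of the whole treated knockout list and 69.9% of its intervals above 50 Mb of chromosome 19. Of the 27 untreated knockout intervals, 5 had a counterpart in untreated wild type (18.5%, 6.3 to 38.1), against 53.7% of the whole list. With an overlap of 50% of both intervals it was 1 of 27 (3.7%). In treated wild type 4 of the 27 had a counterpart (14.8%, 4.19 to 33.7), against 11.9% of the rest of the list. The longest stretch shared by the untreated lists was chr19:49899901-49901650, with 1750 bp, and the longest shared by treated wild type and the untreated knockout was chr19:44037251-44039200, with 1950 bp. Overlap depends on how dense and how wide both lists are, and the sparse lists covered little of the region.

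Intervals of the sparse lists were also set by distance beside those of treated wild type, with overlapping intervals counted at 0. The median distance to the nearest treated wild-type interval was 3.03 kb for the treated knockout, 4 kb for the untreated knockout and 4.23 kb for untreated wild type. Within 5 kb lay 9 of 14 intervals of the treated knockout (64.3%, 35.1 to 87.2), 15 of 27 of the untreated knockout (55.6%, 35.3 to 74.5) and 42 of 80 of untreated wild type (52.5%, 41 to 63.8). Of those within 5 kb, 1 in the treated knockout, 4 in the untreated knockout and 19 in untreated wild type overlapped a treated wild-type interval. Within 5 kb but without overlap were 8 of all 14, 11 of all 27 and 23 of all 80 intervals in the same order. The DNA within 5 kb of a treated wild-type interval made up 20.8% of the region. That is a share of single bases, whereas the shares above count whole intervals by their nearest edges, so it is no expected value for them. Outside the region, the shares of the same lists within 5 kb of a treated wild-type interval were 31% in the treated knockout, 27.1% in the untreated knockout and 28.3% in untreated wild type. The DNA within 5 kb was measured in the region only. Treated wild type was dense there, by the choice of the region, so the shares inside and outside are not on the same scale. The 5 kb limit was set with the distances already seen.

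**Figure D3:**
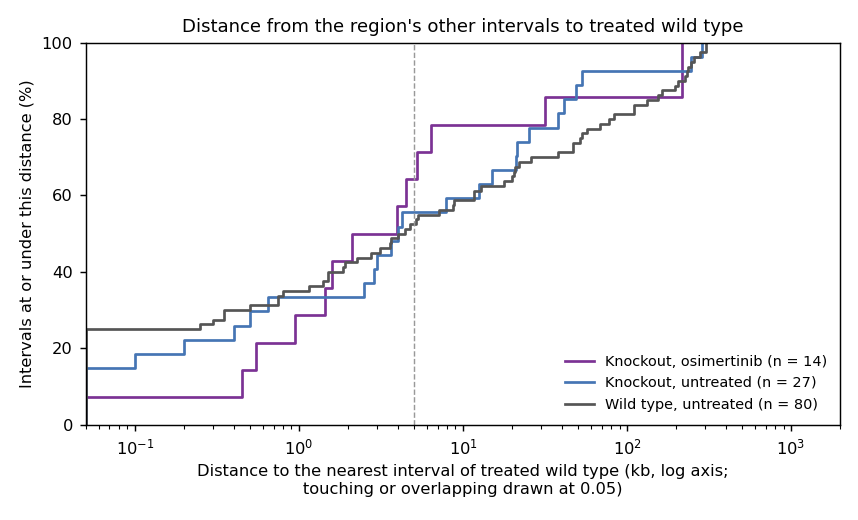
Cumulative share of the region's intervals in percent (y axis) by distance in kb to the nearest treated wild-type interval (x axis, log scale), for the treated knockout (n = 14), the untreated knockout (n = 27) and untreated wild type (n = 80). The dashed line marks 5 kb, within which 64.3%, 55.6% and 52.5% of the intervals lay in that order.

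Height and width were measures that the choice of the region had not used. The maximum of a called peak, its highest coverage, is the authors' value and its scale differs between lists, so it was set against the median of its own list. In treated wild type the region's intervals had a median of 1 times the list median (quartiles 0.909 to 1.18), equal to that of the rest of the list, and 60.2% were at or above the list median against 58.6% of the rest. The treated wild-type peaks of the region were thus many and of ordinary height. In the other lists the median was 0.875 times the list median in the treated knockout (95% interval 0.75 to 1), 0.8 times in the untreated knockout (0.8 to 1) and 0.75 times in untreated wild type (0.75 to 0.833). The interval lay below the list median in untreated wild type and reached it in both knockout lists. At or above the list median were 3 of 14 intervals of the treated knockout (21.4%), 13 of 27 of the untreated knockout (48.1%) and 14 of 80 of untreated wild type (17.5%). In the rest of those lists 64.1%, 74.3% and 52% were, in the same order. Maxima up to 200 steps were whole multiples of 1 step per list, to within 0.001 steps. In steps, the region's median was 7 in the treated knockout, 11 in treated wild type, 4 in the untreated knockout and 9 in untreated wild type. The lowest step that entered the whole list was 4, 5, 2 and 5 in the same order, and the part of these unequal limits in the counts was not tested.

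**Figure D4:**
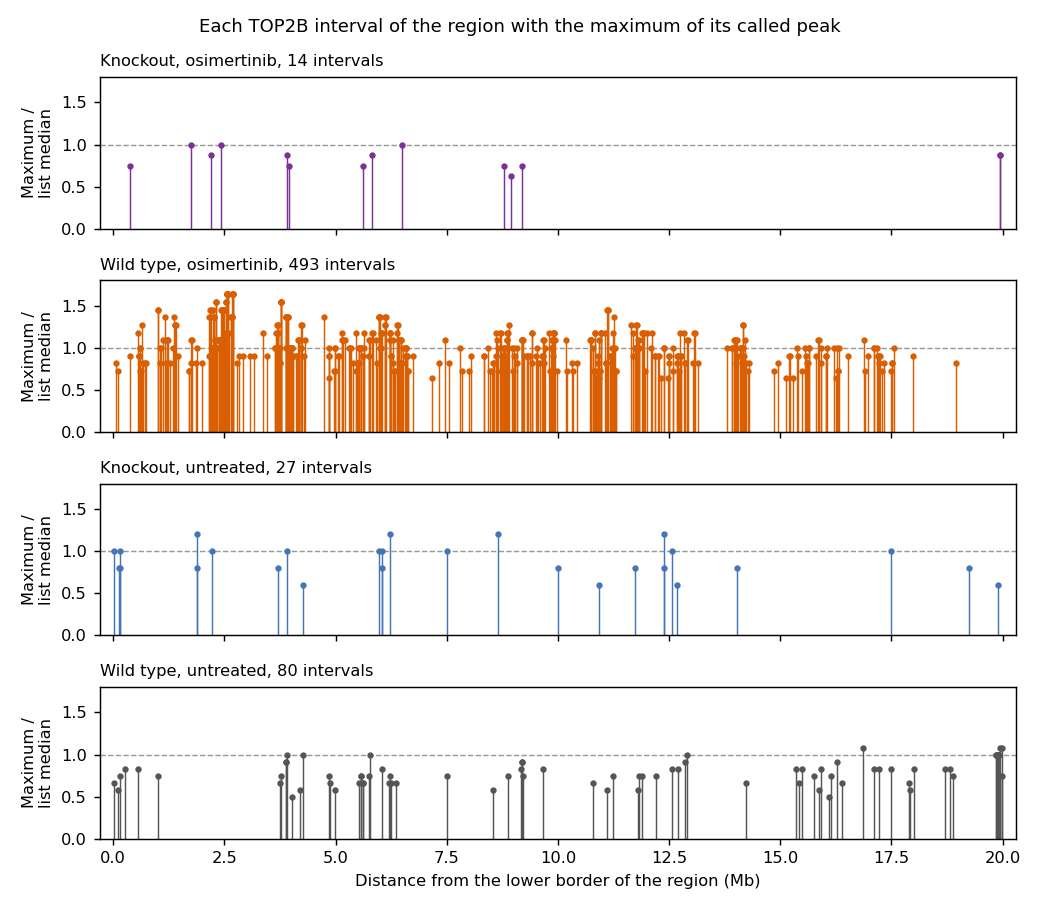
Every interval of the region by distance in Mb from its lower border (x axis), with the maximum of its called peak divided by the median maximum of its list (y axis) and 1 panel per list. The dashed line marks the list median. Treated wild type reached 1.64 times the median and the treated knockout did not exceed 1 times.

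The 5 highest called peaks of treated wild type in the region lay in 2 places. Of these, 4 fell in the window at 32 to 33 Mb. The highest gave 7 intervals across chr19:32556401-32585250, with a maximum of 1.64 times and an area of 7.43 times the list median. The next gave 4 intervals across chr19:32679951-32693100 (1.64 times), and those at chr19:32319301-32322600 and chr19:32544801-32547800 gave 2 intervals each (1.55 times). The remaining peak gave 4 intervals across chr19:33766301-33779150 (1.55 times) and was the only one of the 5 with a counterpart in another list, untreated wild type. These spans are those of the intervals. A maximum could lie outside them, as at chr19:32595401-32595450 for the highest peak. In treated wild type the maximum lay outside its interval for 72.4% of the region's intervals and 70.1% of the rest of the list. In untreated wild type the highest peaks of the region lay instead towards its upper border, at chr19:49942101-49944600, chr19:46853651-46856300 and chr19:49990251-49994300, each 1.08 times the list median.

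Median widths were 1175 bp in the treated knockout (quartiles 900 to 1300), 1200 bp in treated wild type (950 to 1400), 1800 bp in the untreated knockout (1450 to 1950) and 2275 bp in untreated wild type (1738 to 2750). In the rest of the lists they were 1150, 1200, 1650 and 2600 bp in the same order. Untreated wild type was thus the list in which the interval of the region's median (2000 to 2500 bp) lay below the rest. The widest interval was 3500 bp in treated wild type, at chr19:36591451-36594950, and 5000 bp in both untreated lists, at chr19:30162201-30167200 in the knockout and chr19:49864701-49869700 in wild type.

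**Figure D5:**
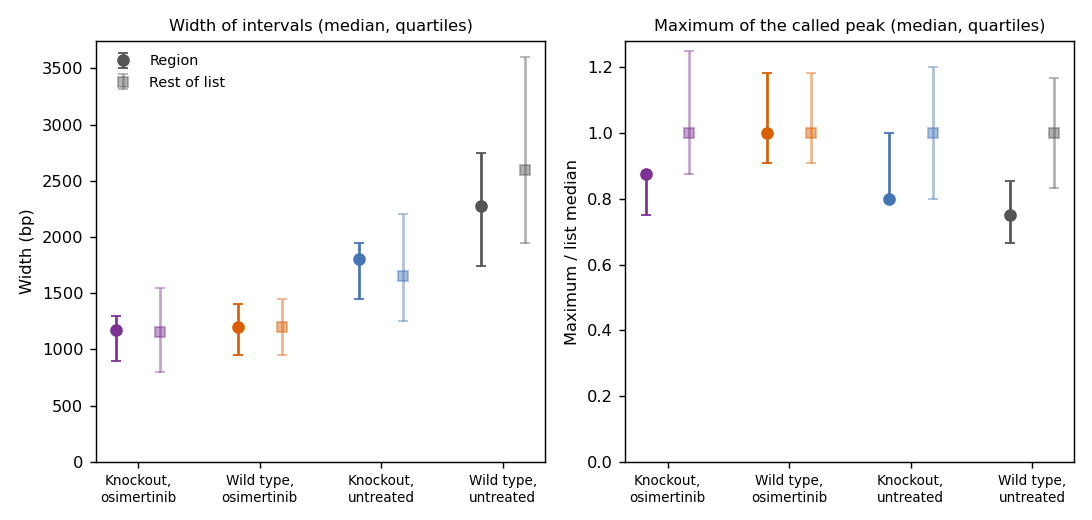
Median width in bp (left) and median maximum relative to the list median (right) of the region's intervals (circles) and of the rest of each list (pale squares), with bars from the first to the third quartile. In treated wild type region and rest coincide at 1200 bp and at 1 times the list median, and in the other lists the region's median maxima are 0.75 to 0.875 times the list median.

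Intervals of treated wild type came in groups. Neighbouring intervals were a median of 12.8 kb apart in treated wild type (quartiles 3.15 to 35.4), against 107 kb in untreated wild type. Joining neighbours up to 10 kb apart put 41.6% of the treated wild-type intervals into 46 groups of 3 or more, and the largest group held 9 intervals over 40.5 kb at chr19:32544801-32585250. In untreated wild type 2 such groups held 8.75% of the intervals. Gaps and groups depend on the number of intervals in the region, 493 against 80, and the region was chosen on these counts. The contrast between the 2 lists is therefore no separate result. Part of this grouping is the splitting of broad called peaks: the 493 treated wild-type intervals came from 323 called peaks, of which 212 gave 1 interval, 78 gave 2 and 33 gave 3 or more, up to 10. In that list 57% of the region's intervals were pieces of a split peak, against 49.5% of the rest. In untreated wild type 16.3% were, against 50.1% of the rest. Apart from the empty end of the region beyond 48956850, the longest gaps between treated wild-type intervals were chr19:47995751-48956050 with 960 kb, chr19:43156101-43809700 with 654 kb and chr19:44303301-44849900 with 547 kb. Untreated wild type had 4 intervals in the first of these, and no list had any in the other two.

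A stretch of chromosome 5 and a stretch of chromosome 17 that also held many more intervals in treated than in untreated wild type were set beside the region. The share ratio of treated to untreated wild type was 9.12 (7.91 to 10.5) in the first 45 Mb of chromosome 5 and 8.42 (6.63 to 10.8) in chromosome 17 beyond 70 Mb, beside 9.75 in the region. For the treated against the untreated knockout it was 0.785 (0.586 to 1.04) and 1.46 (0.659 to 3.19) in that order, beside 0.865 in the region. Median widths in treated wild type were 1200 bp in both stretches, and 63% and 61.2% of the intervals were pieces of split peaks. Median maxima in treated wild type were 1.18 times the list median on chromosome 5 and 1 times on chromosome 17. On chromosome 5 they were 0.875 times in the treated knockout, 1 in the untreated knockout and 0.917 in untreated wild type. On chromosome 17 they were 0.75, 0.8 and 0.75 times in the same order, near the 0.875, 0.8 and 0.75 of the region. Counterparts differed more: of the treated wild-type intervals, 13.3% on chromosome 5 and 9.17% on chromosome 17 had one in untreated wild type, against 3.85% in the region. Of the untreated wild-type intervals, 61.1% on chromosome 5 and 41.5% on chromosome 17 had one in treated wild type, against 23.8% in the region. These differences between stretches were not tested, and overlap depends on the density of both lists. Treated and untreated wild type held 28.9 and 5.02 intervals per Mb on chromosome 5, against 24.7 and 4 in the region. A density was not calculated for the stretch of chromosome 17.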

How the data were processed

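PC9 cells were profiled by CUT&RUN in 16 samples, of which the 8 with the TOP2B antibody correspond to 4 deposited lists of intersected peaks, 1 for each of the 4 conditions. That each list joins the 2 replicates of its condition was inferred from its name. The 8 samples with the H2A antibody were not analysed here. The submitters' processing notes name GRCh37, Bowtie2 2.4.2, SAMtools 1.16, bedtools 2.30, deepTools 3.5.1, SEACR, FastQC and Trimmomatic, with no order. The sources used here do not give the peak caller's mode, its control or the scaling of coverage, and the depth of the libraries is unknown.

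Lists had no header, so columns were identified from their values. The area of a called peak is a deposited score, its signal summed over bases. The maximum is a deposited signal, the authors' highest coverage in the peak, which can lie outside the interval beside which it stands. Intervals sharing area, maximum and region of the maximum were taken as 1 called peak. Positions are counted from 1.

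Intervals were assigned by midpoint. With 1 list per condition no test was made. Shares have exact Clopper-Pearson limits and ratios of shares exact conditional limits, both at 95%. Medians have exact order-statistic limits. Windows of 1 Mb with at least 20 intervals in either list were compared, with 0.5 added to counts and 2-fold as the threshold. Python 3.11.15, SciPy 1.17.1 and pandas 2.3.3 were used, and the window call, overlaps and ratio limits were tested on simulated data. Positions were named by rule: the densest windows, the highest called peaks (5 in treated wild type, 3 in other lists), the widest intervals, positions shared between lists, borders and the longest gaps. Ties in height between called peaks went to the larger area, then the lower start. No position was held by all 4 lists, so the longest held by 2 were named instead, after their values had been seen. The region, measures and rules were chosen with earlier results of these data known. Gene lists planned for the region were not run, since no GRCh37 annotation was used.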

Additional observations from a re-analysis of the deposited data

Results flagged for a closer look

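The ratio of treated to untreated shares in the region lay below 1 in the knockout and above 1 in wild type. The ratio of treated to untreated shares was 0.865 in the knockout (0.419 to 1.71, from 14 and 27 intervals) and 9.75 in wild type (7.69 to 12.5, from 493 and 80 intervals), so that the wild-type ratio was 11.3 times the knockout ratio. The knockout limits include equality, and with lists of equal length its ratio was 2.33, above 1 as in wild type (27.4). An opposite direction is thus not shown. The difference between genotypes was not tested, because each condition had 1 list, and the region had been chosen on the wild-type counts. A higher ratio in wild type than in the knockout was not particular to the region. In the first 45 Mb of chromosome 5 the ratio was 9.12 in wild type and 0.785 in the knockout. In chromosome 17 beyond 70 Mb it was 8.42 and 1.46.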

How the results depend on the processing

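Of 92 alternative values, 69 stayed within the counting limits of the reported value (counts of windows within 1.5 times), 23 moved past them and 0 reversed a ratio whose limits excluded equality. For treated against untreated wild type the share ratio was 7.01 by called peaks, 13.6 by summed length, 6.16 by number, 29.7 among intervals at or above the list median and 27.4 with lists of equal length. Among intervals at or above the list median it was 0.0119 for the treated knockout against treated wild type and 0.793 for the untreated knockout against untreated wild type. With equal lengths it was 2.33 for the treated against the untreated knockout. With at least 10 intervals per window, 17 windows of the region were past 2-fold in either direction between the wild-type lists and 1 between the untreated lists. The 17 include 49 to 50 Mb, with 0 treated and 11 untreated wild-type intervals, where the treated share was the lower. No share over the genome is at hand for this limit, so these counts have no weight of their own. The counterpart share of treated wild type in untreated wild type was 2.03% with a reciprocal overlap of 50%, 8.32% with widened intervals and 6.19% by called peaks. That of the treated knockout in treated wild type was 42.9% with widened intervals and 0% among its 3 intervals at the list median. That of the untreated knockout in untreated wild type was 3.7% with a reciprocal overlap of 50%. Against the rest of chromosome 19, the region's median maximum was 0.700 times as high in the treated knockout, 0.667 in the untreated knockout and 0.643 in untreated wild type, and the width ratio in treated wild type was 1.04. Most intervals of that rest lay above 50 Mb, with 589 of 602 in the treated knockout, 855 of 894 in the untreated knockout and 742 of 816 in untreated wild type. In the first 30 Mb the median maxima of these lists were 0.875, 1 and 0.75 times the list median. In the region they were 0.875, 0.8 and 0.75 times. The share of treated wild-type intervals in groups of 3 or more was 24.7% with gaps up to 5 kb and 62.7% up to 20 kb. Ending the region at 49 Mb, the group gaps and the distances of 2 and 10 kb were chosen after seeing the data. The causes of these shifts were not tested. No paired analysis was possible because each condition has 1 list, with no value per replicate, and for the same reason no replicate could be left out. Depth is unknown, so a window without an interval is not a measurement of zero signal.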

Other observations

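Across the 20 windows of 1 Mb in the region, interval counts of treated and untreated wild type had a Pearson's r of -0.12 and a Spearman's rho of -0.01. Between the treated knockout and treated wild type r was 0.45 and rho 0.44, and between the untreated knockout and untreated wild type r was 0.17 and rho 0.08. The values run across neighbouring windows of single lists, which share a library pair, and the knockout counts were 4 or fewer in every window, so they describe these lists and are no test.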
